A study of Mus musculus with 8 samples.

Results

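The collagen chain genes are the genes whose symbol reads Col, a type number, the letter a and a chain number. They were found by that spelling alone, without use of any measured value, and numbered 44 of the 18605 genes in the deposited gene table. All 44 were matched to RefSeq. The cells were C3H10T1/2, a mesenchymal stem cell line from mouse embryo of the C3H strain. RNA of this 1 line was sequenced in 4 groups of 2 libraries: control cells given a non-target construct (NC) and cells given a lentiviral shRNA against Nap1l2 (KD-Nap1l2), each before induction and again after osteogenic induction for 7 days (NC-7day and KD-Nap1l2-7day). Nap1l2 encodes a nucleosome assembly protein. The labels do not say whether the 2 libraries of a group came from separate cultures, so the p-values below measure the spread between these libraries, which may be technical.

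Collagens are the proteins of the extracellular matrix that are built from chains wound into a triple helix, and each gene encodes 1 chain. Types I and III form the thick fibrils of skin, bone and connective tissue, with type V in the core of those fibrils, while types II and XI form the fibrils of cartilage. Type IV makes the sheet of the basement membrane and type VI makes beaded filaments around cells. Other members sit on the surface of fibrils (types IX, XII, XIV and XVI), span the cell membrane (types XIII, XVII, XXIII and XXV), or carry long non-helical ends (types XV and XVIII, the multiplexins). Type I collagen is the main protein of the bone matrix, and type X is known from cartilage that is about to be replaced by bone.

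Library totals ran from 17420284 to 19427359 counts. Nap1l2 itself had 3 counts in each NC library, 2 and 7 counts in the KD-Nap1l2 libraries, 15 and 5 in NC-7day and 7 and 13 in KD-Nap1l2-7day. These counts overlap between the 2 labelled conditions and do not show the knockdown at the RNA level, so the knockdown groups are named here as their labels name them. The 10 mesenchymal markers together were strongly present, with summed normalized counts from 105504 to 205765 (Vim alone averaged 87783). The sums were 320 to 597 for the 8 immune markers and 34.5 to 166 for the 7 epithelial markers. Of the immune and of the epithelial markers, 4 each stayed under 10 counts in every library. The immune marker Ptprc and the epithelial marker Epcam stood at no more than 4 counts in any library. Of the 10 osteoblast genes, 7 had enough counts for a test, Runx2 among them, and Spp1 (osteopontin) was abundant. The lineage markers Alpl, Sp7 and Ibsp had at most 10, 5 and 2 counts in any library, 7-day libraries included. The libraries of NC-7day and of KD-Nap1l2 lay farther apart than those of the other groups. Over the 26 tested collagen genes whose mean reached 50 normalized counts, the median fold between the 2 libraries of a group was 1.41 in NC-7day, 1.38 in KD-Nap1l2, 1.17 in NC and 1.17 in KD-Nap1l2-7day.

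The sequences below belong to the genes on which the results turn, and all are from the mouse build GRCm38. The 2 main type IV chain genes, Col4a1 (chr8:11198423-11312889) and Col4a2 (chr8:11312805-11449287), lie head to head on opposite strands, and their annotated ends overlap by 85 bases. Each RefSeq promoter window runs from 250 bases before to 50 bases after an annotated start. For Col4a2 this start is the first base of the gene given above, but for Col4a1 it lies inside the gene. Another Col4a1 start would give another overlap. The 2 windows share 78 bases (chr8:11312777-11312854), which are in capitals. They are shown because the normalized counts of both genes were higher after induction in control and in knockdown cells alike, with no overlap between the libraries, while most other members were lower.
Col4a1, chr8:11312777-11313076, minus strand: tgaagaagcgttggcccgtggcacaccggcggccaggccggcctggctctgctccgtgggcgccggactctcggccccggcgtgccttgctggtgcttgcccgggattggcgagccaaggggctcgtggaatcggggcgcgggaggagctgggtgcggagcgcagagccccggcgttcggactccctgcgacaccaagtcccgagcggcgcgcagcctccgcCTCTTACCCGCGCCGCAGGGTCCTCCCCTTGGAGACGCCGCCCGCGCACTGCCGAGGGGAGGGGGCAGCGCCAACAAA
Col4a2, chr8:11312555-11312854, plus strand: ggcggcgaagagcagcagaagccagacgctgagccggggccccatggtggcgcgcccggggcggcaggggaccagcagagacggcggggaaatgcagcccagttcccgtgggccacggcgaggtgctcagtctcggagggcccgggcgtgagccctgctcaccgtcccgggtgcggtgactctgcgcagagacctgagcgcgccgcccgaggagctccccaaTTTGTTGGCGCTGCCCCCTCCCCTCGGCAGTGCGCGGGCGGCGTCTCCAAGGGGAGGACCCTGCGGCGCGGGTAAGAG

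The windows of Col1a2 and Col3a1 are shown because both genes were among the most abundant members that fell in at least 1 of the inductions. The capitals mark each match to CCAAT, to the GC box GGGCGG or to TATAAA on either strand, and no match overlaps another.
Col1a2, chr6:4505368-4505667, plus strand: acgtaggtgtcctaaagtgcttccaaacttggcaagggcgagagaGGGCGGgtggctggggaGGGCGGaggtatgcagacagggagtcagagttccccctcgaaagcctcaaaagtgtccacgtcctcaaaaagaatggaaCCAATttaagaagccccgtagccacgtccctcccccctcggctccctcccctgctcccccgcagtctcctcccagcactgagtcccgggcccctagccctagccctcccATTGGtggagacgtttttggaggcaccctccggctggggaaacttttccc
Col3a1, chr1:45311288-45311587, plus strand: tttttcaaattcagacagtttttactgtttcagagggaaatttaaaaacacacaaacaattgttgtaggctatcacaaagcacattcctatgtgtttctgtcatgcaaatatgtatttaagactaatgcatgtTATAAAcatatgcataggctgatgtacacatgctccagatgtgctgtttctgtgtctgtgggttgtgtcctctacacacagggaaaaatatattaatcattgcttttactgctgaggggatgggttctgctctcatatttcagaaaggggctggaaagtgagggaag
In the Col1a2 window, GC boxes began 205 and 188 bases before the start, a CCAAT began 109 bases before it, and a CCAAT on the opposite strand lay at the start itself. In the Col3a1 window the only match was a TATAAA that began 117 bases before the start. RefSeq windows were at hand for 35 of the 44 members, 38 windows in all. Of these, 13 held CCAAT (34.2%), 23 held GGGCGG (60.5%) and 5 held TATAAA (13.2%), against 37.4%, 35.7% and 13.6% of the 32851 windows of all genes. These matches are a description of the letters and do not show that a factor binds there.

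Exon 2 of Col2a1 (chr15:98000403-98000606, minus strand, 204 bases, coding throughout) is shown because Col2a1 was the only member called between KD-Nap1l2 and NC before induction, and because this exon separates its 2 curated transcripts. The RefSeq transcript with 54 exons contains it and the one with 53 exons skips it. Inclusion of this exon is known from cartilage precursors and its skipping from mature cartilage cells.
Col2a1 exon 2: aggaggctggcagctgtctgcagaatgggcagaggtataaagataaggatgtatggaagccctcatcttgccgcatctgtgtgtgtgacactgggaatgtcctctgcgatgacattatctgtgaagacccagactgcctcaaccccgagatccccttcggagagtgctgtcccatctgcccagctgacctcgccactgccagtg

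In level, the members covered the full range from some of the most abundant transcripts of these cells to none. FPKM, the deposited count per gene length and per library, was used to compare genes with each other. It was at least 100 in every library for 7 members, at least 10 for 13 and at least 1 for 25, while the mean of the other 19 was under 1. Col1a2, the second chain of type I collagen, had the highest mean, 846 FPKM, and stood at rank 61 among all genes. Its FPKM was 937 and 949 in NC, 1042 and 1136 in KD-Nap1l2, 607 and 897 in NC-7day, and 595 and 602 in KD-Nap1l2-7day. Next came Col6a1, the first chain of type VI (mean 689 FPKM, from 444 to 1128), and Col1a1, the first chain of type I (570, from 343 to 1039). They were followed by Col6a2 (440 FPKM), Col3a1, the single chain of type III (365), Col4a1 (244), Col6a3 (130), Col4a2 (122), Col15a1 (81.9), Col5a1 (77.7), Col5a2 (73.5) and Col16a1 (34.5). The neighbours in this order mostly did not separate: Col5a1 and Col5a2, for example, covered 50.7 to 144 and 43.4 to 133 FPKM over the 8 libraries. These 12 members made up 94.9% of all collagen counts, and Col1a1, Col1a2 and Col3a1 alone made up 47.8%. At the other end, the cartilage chain genes Col2a1, Col11a2 and Col9a1 averaged between 2.05 and 2.61 FPKM, and Col10a1 stayed below 1 FPKM in every library. The 10 members that had too few counts for a test (Col4a3, Col4a4, Col4a6, Col6a4, Col6a5, Col13a1, Col19a1, Col22a1, Col24a1 and Col25a1) reached 13 counts at most. None of the 44 was at 0 in all 8 libraries, but 5 never passed 3 counts, the level that a count of 0 allows.

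**Figure D1:**
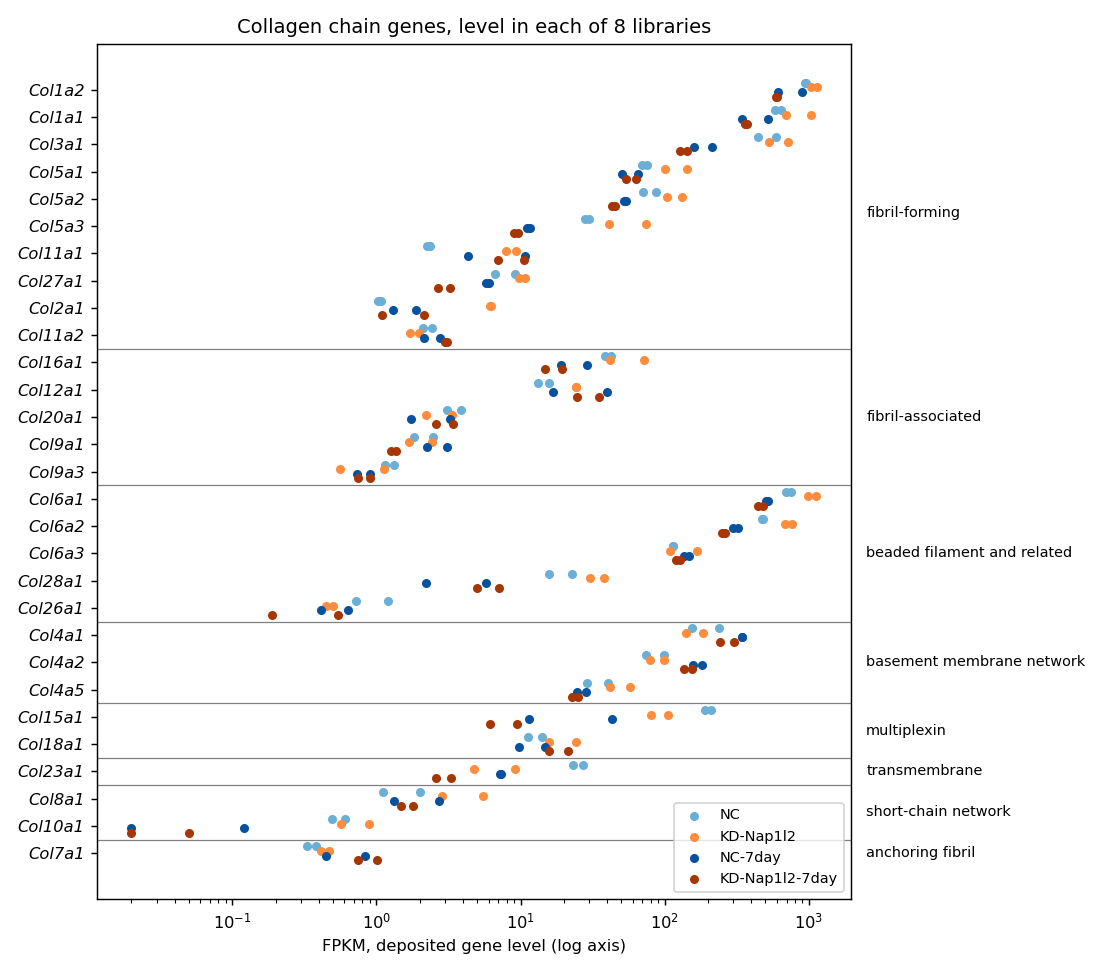
FPKM (log axis) of the 29 collagen chain genes with a mean of at least 0.3 FPKM, one row per gene, sorted by family and mean. Each point is a library and the colours are the 4 groups. The upper rows of the fibril-forming and beaded filament families reach from 127 to 1136 FPKM in Col1a1, Col1a2, Col3a1, Col6a1 and Col6a2, and Col15a1, Col28a1, Col23a1 and Col10a1 spread widely between groups.

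The collagens took a smaller part of the RNA after induction. Their share of all counts was 2.31% and 2.21% in NC and 1.63% and 1.88% in NC-7day, and it was 2.52% and 3.17% in KD-Nap1l2 and 1.44% and 1.49% in KD-Nap1l2-7day. As group values, these are 2.26% ± 0.07, 1.76% ± 0.17, 2.85% ± 0.46 and 1.47% ± 0.04 (SD, n = 2). Each library after induction lay below each library before it, in control and in knockdown cells, but 2 against 2 libraries cannot give an exact permutation p below 0.333 (two-sided), so no test is given. Before induction the KD-Nap1l2 libraries lay above those of NC, and after induction the KD-Nap1l2-7day libraries lay below those of NC-7day. Counting error was small beside this spread: the exact 95% interval of the first NC library ran from 2.30% to 2.32%, and intervals of this kind cover counting error only. Types I and III together went from 1.21% and 1.10% (NC) to 0.646% and 0.875% (NC-7day), and from 1.26% and 1.62% (KD-Nap1l2) to 0.612% and 0.612% (KD-Nap1l2-7day). Type VI went from 0.592% and 0.569% to 0.445% and 0.471% in control cells and from 0.758% and 0.903% to 0.388% and 0.413% in knockdown cells. Type IV went the other way, from 0.179% and 0.242% to 0.366% and 0.351% in control cells and from 0.172% and 0.225% to 0.265% and 0.319% in knockdown cells.

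**Figure D2:**
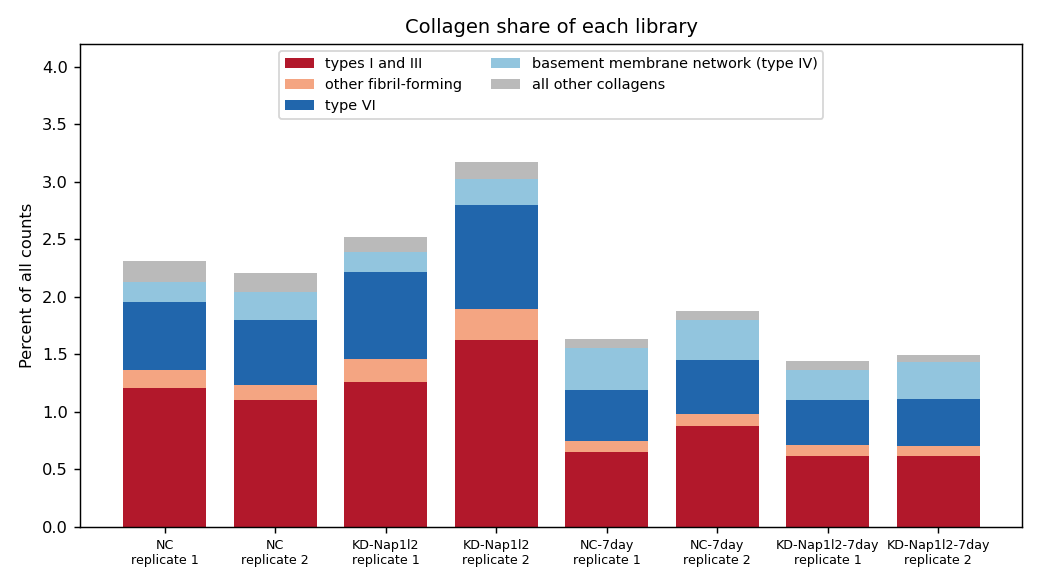
Stacked bars give the percent of all counts of each library that fell on collagen chain genes, split into types I and III, the other fibril-forming types, type VI, type IV and all others. The 4 libraries taken after induction stand between 1.44% and 1.88%, below the 2.21% to 3.17% of the 4 libraries taken before it, while their type IV part is larger.

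Chains of one protein are made in fixed proportions, so the FPKM ratios between partner genes were set beside each other. The type I trimer holds a pair of chains from Col1a1 for each chain from Col1a2, but the ratio of Col1a1 to Col1a2 FPKM was between 0.564 and 0.915 in all 8 libraries. The ratio of Col4a1 to Col4a2, whose chains join in the same proportion, was between 1.78 and 2.41, and that of Col6a1 to Col6a2 was between 1.44 and 1.83. The ratio of Col1a1 to Col1a2 was between 0.617 and 0.915 in the 4 libraries before induction and between 0.564 and 0.615 in the 4 after it, and that of Col6a1 to Col6a2 was between 1.44 and 1.59 before and between 1.63 and 1.83 after. The ratio of Col4a1 to Col4a2 overlapped between the times. The third common chain of type VI, Col6a3, did not follow its partners: the ratio of Col6a1 to Col6a3 was 6.57 and 5.996 in NC and 9.07 and 6.74 in KD-Nap1l2, and 3.71 and 3.54 in NC-7day and 3.70 and 3.74 in KD-Nap1l2-7day. The ratio of Col1a1 to Col3a1 was 1.10 and 1.32 in NC, 1.32 and 1.45 in KD-Nap1l2, 1.60 and 3.26 in NC-7day, and 2.53 and 2.91 in KD-Nap1l2-7day. FPKM ratios between genes also carry each gene's length and mappability, so the changes between libraries bear more weight than the absolute ratios.

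**Figure D3:**
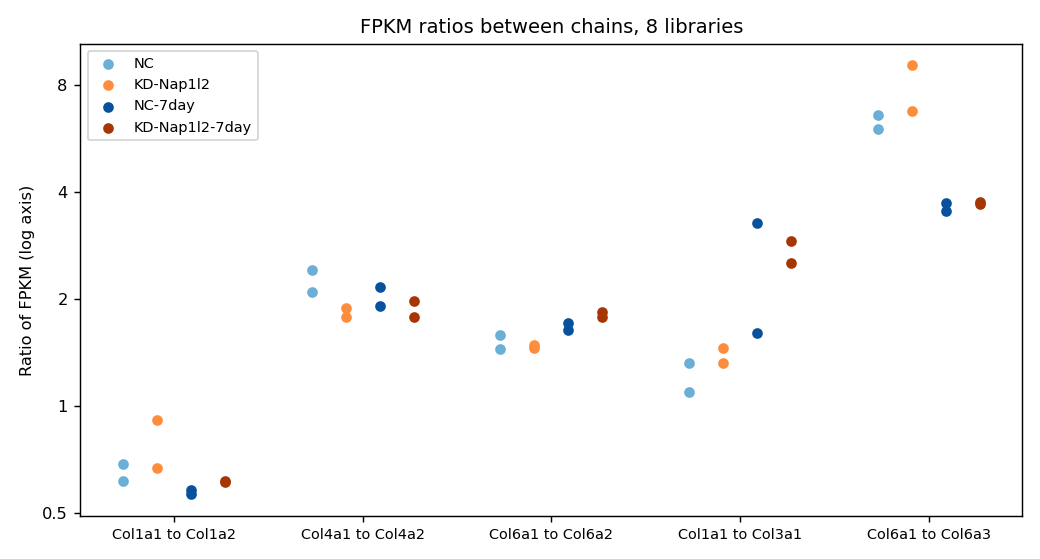
Ratios of FPKM between partner chains in each of the 8 libraries (log axis, coloured by group). Col1a1 to Col3a1 and Col6a1 to Col6a2 are higher, and Col1a1 to Col1a2 and Col6a1 to Col6a3 lower, in all 4 libraries taken after induction than in the 4 taken before it, while Col4a1 to Col4a2 overlaps.

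The change on osteogenic induction in control cells was read from NC-7day against NC. No cells kept for 7 days without induction were sequenced. The osteogenic medium and the 7 days of culture therefore cannot be told apart, in control or in knockdown cells. The words induction and response cover both, and the part of each was not tested. All 13470 genes with enough counts, 34 collagens among them, entered edgeR's quasi-likelihood test, and a gene was called at a Benjamini-Hochberg adjusted p under 0.05 over all genes. Of the 34 members, 7 fell and 2 rose, and the other 25 did not pass, so that 26.5% were called against 8.21% of all genes (3.38% of all genes fell and 4.83% rose). The median log2 fold change of the members was -0.45, beside -0.004 over all genes tested, and 64.7% of the members had a lower level against 50.3% of all genes. The call count rested on single libraries: it was 0 without NC replicate 1 (9 at an unadjusted p under 0.05), 3 without NC replicate 2, and 4 without NC-7day replicate 1 or without either of the KD-Nap1l2-7day libraries, which add to the estimate of the spread. A sample left alone in its group was then assumed to vary like the other groups.

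In knockdown cells (KD-Nap1l2-7day against KD-Nap1l2), 16 members fell and 1 rose, and 17 did not pass. This is 50% of the members tested, against 14.2% of all genes (7.36% fell and 6.84% rose). The median log2 fold change was -1.13 beside -0.007 over all genes. The count was 5 without KD-Nap1l2-7day replicate 1 and 6 without KD-Nap1l2-7day replicate 2, and between 13 and 18 without any other library. Between the inductions 7 genes were shared, which is 77.8% of those called in control cells and 41.2% of those called in knockdown cells: Col3a1, Col5a3, Col6a2, Col10a1, Col15a1, Col23a1 and Col28a1, all of which fell in both. In the control cells alone Col4a2 and Col11a1 were called, and in the knockdown cells alone Col1a1, Col1a2, Col2a1, Col4a5, Col5a1, Col5a2, Col6a1, Col11a2, Col16a1 and Col27a1. That a member passed in one and not in the other does not show that its responses differ.

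**Figure D4:**
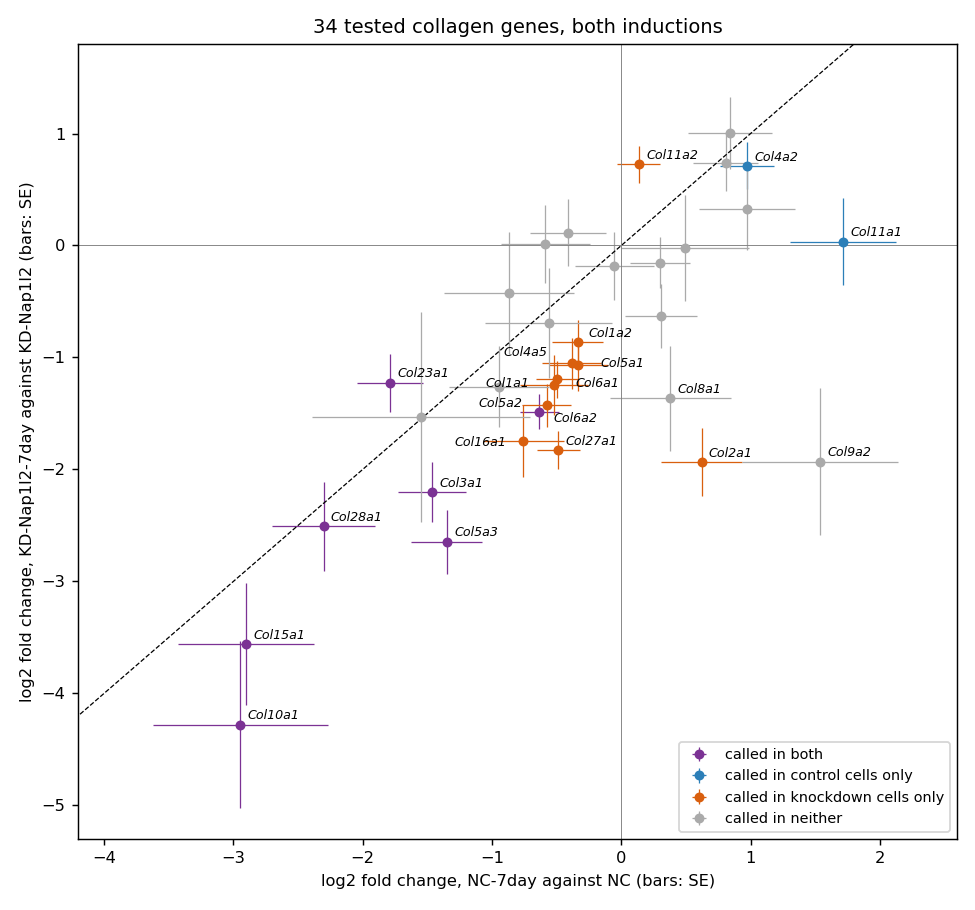
Log2 fold changes of the 34 tested collagen chain genes on induction, control cells on the x axis and knockdown cells on the y axis, with bars of 1 SE. The dashed line marks equal changes. Col15a1 and Col10a1 lie farthest down in both (-2.90 and -2.95 against -3.56 and -4.28). Below the line lie 27 of the 34 points (79.4%), beside 52.2% of all genes tested.

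Among the fibril-forming chains, type III was called in both inductions. Col3a1 had 60821 and 45080 normalized counts in NC and 22432 and 15966 in NC-7day, and 51560 and 76580 in KD-Nap1l2 and 14660 and 13156 in KD-Nap1l2-7day. The libraries before and after induction did not overlap, and Col3a1 fell by 1.46 ± 0.26 (SE) on the log2 scale in control cells (adjusted p = 0.0167) and by 2.20 ± 0.27 in knockdown cells (adjusted p = 0.00317, edgeR). The knockdown-cell call held in all 8 fits that left out 1 library, and the control-cell call in 6.
Col1a1 went from 71115 and 63679 to 38267 and 55540 in control cells, and from 72559 and 118558 to 39501 and 40856 in knockdown cells. The log2 change of Col1a1 was -0.52 ± 0.26 in control cells, which did not pass (adjusted p = 0.269), and -1.25 ± 0.27 in knockdown cells (adjusted p = 0.0223). Col1a2 changed less, by -0.34 ± 0.20 (adjusted p = 0.332) and -0.86 ± 0.20 (adjusted p = 0.0271). The calls of Col1a1 and Col1a2 in knockdown cells held in 5 and 4 of the 8 fits that left out 1 library.

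The 3 type V genes encode the chains around which type I fibrils are laid down, and all 3 fell in knockdown cells. Col5a3 had 3349 and 3102 normalized counts in NC, 1318 and 1215 in NC-7day, 4410 and 8629 in KD-Nap1l2, and 1071 and 1010 in KD-Nap1l2-7day. The KD-Nap1l2 libraries were the highest and also the farthest apart. Col5a3 fell in both, with a log2 change of -1.35 ± 0.27 in control cells (adjusted p = 0.0259) and -2.65 ± 0.29 in knockdown cells (adjusted p = 0.00213), calls that held in 2 and in all 8 of the 8 fits that left out 1 library. The log2 changes of Col5a2 and Col5a1 in knockdown cells were -1.43 ± 0.19 (adjusted p = 0.00442) and -1.07 ± 0.23 (adjusted p = 0.0223), and in control cells -0.58 and -0.33, which did not pass. Col27a1, a fibril-forming chain of cartilage, stood at 1262 and 927 in NC and 810 and 753 in NC-7day. It had 1427 and 1425 in KD-Nap1l2 and 372 and 432 in KD-Nap1l2-7day, which are tight pairs. Its log2 change was -0.49 ± 0.16 (adjusted p = 0.117) in control cells and -1.83 ± 0.17 (adjusted p = 0.00105) in knockdown cells, the smallest p of any member in that comparison.

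The cartilage fibril genes Col2a1 and Col11a1 were at low levels and differed from the rest. Col2a1, the type II chain, had 96.4 and 97.1 normalized counts in NC, 178 and 121 in NC-7day, 541 and 605 in KD-Nap1l2, and 194 and 104 in KD-Nap1l2-7day. Only the KD-Nap1l2 libraries stood apart, by more than the spread within any group. On induction Col2a1 changed by 0.62 ± 0.31 in control cells (adjusted p = 0.266) and fell by 1.94 ± 0.30 in knockdown cells (adjusted p = 0.00783). Col11a1, a type XI chain, had 310 and 292 in NC, 1423 and 554 in NC-7day, 981 and 1272 in KD-Nap1l2, and 1384 and 923 in KD-Nap1l2-7day. It was low only in NC. It rose by 1.71 ± 0.41 in control cells (adjusted p = 0.0433), a call that held in 3 of the 8 fits that left out 1 library, and its change in knockdown cells was 0.04 ± 0.39 (adjusted p = 0.961). Its partner Col11a2 had 266 and 229 in NC, 246 and 297 in NC-7day, 212 and 205 in KD-Nap1l2, and 335 and 355 in KD-Nap1l2-7day. In knockdown cells Col11a2 rose by 0.72 ± 0.17 (adjusted p = 0.0275), the only rise that edgeR called there. Of the 34 members tested, 8 had a higher level in that comparison and 76.5% a lower one, beside 50.6% lower among all genes.

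The deposited transcript estimates put 25.5% and 18.7% of the Col2a1 counts of NC on the transcript with exon 2, 49.7% and 30.0% of KD-Nap1l2, 45.2% and 86.8% of NC-7day, and 25.8% and 74.95% of KD-Nap1l2-7day. The 2 NC libraries held the lowest of the 8 shares, but these rest on only 24.98 and 19.46 estimated counts. The 25.5% of NC replicate 1 was also close to the 25.8% of KD-Nap1l2-7day replicate 1. The shares of the 2 libraries of a group differed widely after induction, and a difference in exon use between groups was not tested.

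Of the beaded filament chains, Col6a1 and Col6a2 fell and Col6a3 did not pass in either induction. Col6a2 had 33708 and 33382 normalized counts in NC, 21312 and 21932 in NC-7day, 45425 and 56083 in KD-Nap1l2, and 17627 and 18678 in KD-Nap1l2-7day. The NC and 7-day pairs were tight, and the 4 groups did not overlap. Col6a2 fell by 0.63 ± 0.15 in control cells (adjusted p = 0.0436) and by 1.48 ± 0.15 in knockdown cells (adjusted p = 0.00179). These calls held in 2 and in all 8 of the 8 fits that left out 1 library. Col6a1 changed by -0.49 ± 0.16 in control cells (adjusted p = 0.111) and fell by 1.20 ± 0.17 in knockdown cells (adjusted p = 0.00482). Col6a3 stayed between 17672 and 29745 in all 8 libraries. Col28a1, a type VI-related chain of nerve and other tissues, had 2012 and 1378 in NC, 203 and 482 in NC-7day, 2569 and 3424 in KD-Nap1l2, and 435 and 618 in KD-Nap1l2-7day, and fell by 2.30 ± 0.40 (adjusted p = 0.0147) and 2.51 ± 0.40 (adjusted p = 0.00827).

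The largest fall of a well-measured member was that of Col15a1, a multiplexin of the outer zone of basement membranes. It had 19346 and 17462 normalized counts in NC and 1079 and 3839 in NC-7day, and 9272 and 7678 in KD-Nap1l2 and 559 and 877 in KD-Nap1l2-7day. No 2 groups overlapped, and they ran from high to low in the order NC, KD-Nap1l2, NC-7day and KD-Nap1l2-7day, but the NC-7day libraries differed 3.56-fold from each other. Col15a1 fell by 2.90 ± 0.53 in control cells (adjusted p = 0.0175) and by 3.56 ± 0.55 in knockdown cells (adjusted p = 0.00737), each in 6 of the 8 fits that left out 1 library. The other multiplexin, Col18a1, changed by -0.05 ± 0.30 and -0.18 ± 0.30 and did not pass. Col23a1, a membrane-spanning collagen, had 2869 and 2406 in NC, 779 and 748 in NC-7day, 915 and 522 in KD-Nap1l2, and 268 and 346 in KD-Nap1l2-7day. It fell by 1.79 ± 0.26 (adjusted p = 0.00796) and by 1.23 ± 0.26 (adjusted p = 0.0221). Col16a1, a fibril-associated chain, fell by 1.75 ± 0.32 in knockdown cells (adjusted p = 0.0133) and changed by -0.76 ± 0.31 in control cells (adjusted p = 0.186). Col12a1, another chain on the fibril surface, had 2838 and 3318 in NC but 8583 and 3506 in NC-7day, and did not pass (0.97 ± 0.37, adjusted p = 0.157).

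The type IV genes Col4a1 and Col4a2 were higher after induction, in contrast to these falls. Col4a2 had 8978 and 11647 normalized counts in NC and 22051 and 18364 in NC-7day, and 8924 and 12184 in KD-Nap1l2 and 16074 and 18466 in KD-Nap1l2-7day. It rose by 0.97 ± 0.21 in control cells (adjusted p = 0.0313), a call that held in 3 of the 8 fits that left out 1 library, and its change in knockdown cells was 0.71 ± 0.21 (adjusted p = 0.0601). Col4a1 had 19192 and 28730 in NC, 43100 and 40677 in NC-7day, 16257 and 23619 in KD-Nap1l2, and 29388 and 37256 in KD-Nap1l2-7day. Its libraries did not overlap before and after induction, but its changes of 0.81 ± 0.25 and 0.74 ± 0.25 did not pass (adjusted p = 0.0976 and 0.0899). The X-linked type IV gene Col4a5 went the other way and fell by 1.05 ± 0.23 in knockdown cells (adjusted p = 0.0232). Col7a1, the chain of the anchoring fibrils that tie the basement membrane down, changed by 0.84 ± 0.33 and 1.001 ± 0.32 (adjusted p = 0.164 and 0.0752).

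Col10a1, the chain of hypertrophic cartilage, was rare throughout. It had 36 and 30 counts in NC and 1 and 7 in NC-7day, and 32 and 51 in KD-Nap1l2 and 1 and 3 in KD-Nap1l2-7day. The libraries before and after induction did not overlap and edgeR called the falls (adjusted p = 0.0369 and 0.0111, held in 3 and 6 of the 8 fits that left out 1 library), but the size is uncertain: scaled to library size, the summed counts before induction were 7.82 times those after it in control cells (exact 95% interval 3.75 to 18.9) and 20.5 times in knockdown cells (7.70 to 76.9). These intervals cover counting error only.

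**Figure D5:**
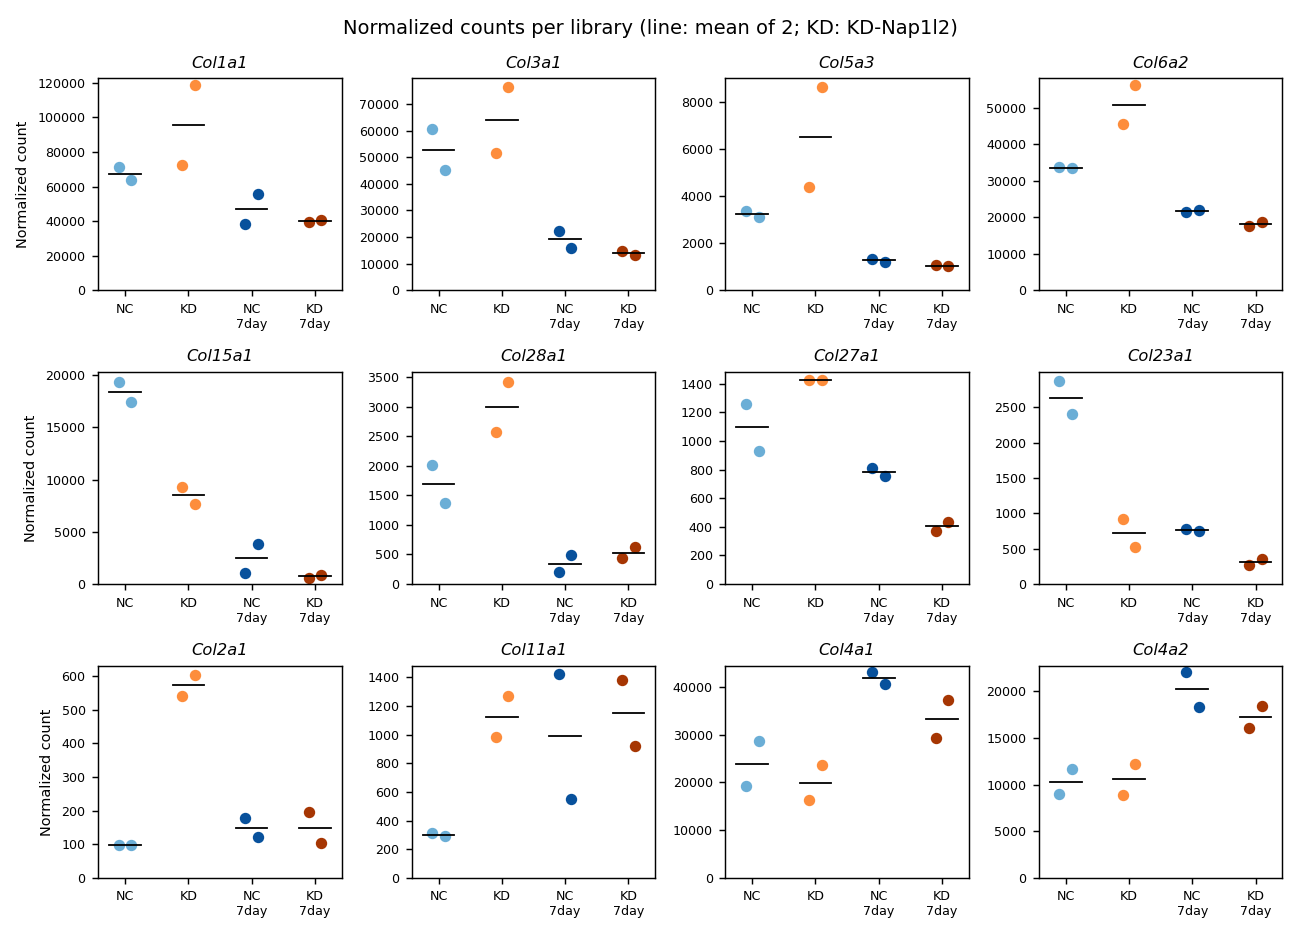
Normalized counts (linear axes from 0) of 12 collagen chain genes in the 4 groups; points are libraries and lines are means of 2. Col3a1, Col5a3, Col6a2, Col15a1 and Col28a1 are lower after induction in control and knockdown cells, Col4a1 and Col4a2 are higher, Col2a1 stands high only in KD-Nap1l2 (541 and 605) and Col11a1 low only in NC (310 and 292).

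Whether the shRNA changed the collagens before induction was read from KD-Nap1l2 against NC. This comparison shares its libraries with both inductions, so that a level that stands out in one of these groups enters 2 comparisons. Only Col2a1 was called, 1 of 34 members, beside 0.0817% of all genes. It rose by 2.56 ± 0.31 (adjusted p = 0.0478), close to the threshold. The call held in 3 of the 8 fits that left out 1 library and was lost without either NC library, without KD-Nap1l2 replicate 2 and without either KD-Nap1l2-7day library, with a log2 change between 2.48 and 2.64 throughout. At an unadjusted p under 0.05 there were 12 of 34 members, beside 13.7% of all genes. DESeq2's Wald test called 8 members, beside 3.44% of all genes: Col2a1, Col5a1, Col5a3, Col6a1, Col6a2, Col8a1 and Col11a1 higher and Col23a1 lower in KD-Nap1l2. By edgeR, Col11a1 stood at 1.90 ± 0.41 (adjusted p = 0.119) and Col23a1 at -1.87 ± 0.26 (adjusted p = 0.0638). More members were called without KD-Nap1l2 replicate 1 and without either NC-7day library, and so were more of all genes. Col8a1, a short-chain collagen of blood vessel and cornea, had 105 and 187 normalized counts in NC, against 257 and 541 for KD-Nap1l2 (1.45 ± 0.47, adjusted p = 0.234). Among members whose mean reached 50 normalized counts, the next negative differences were those of Col15a1 and Col20a1 (-1.12 ± 0.50 and -0.29 ± 0.30), which did not pass. The median of the members was 0.45, beside 0.01 over all genes, and 26.5% of the members were lower against 48.5% of all genes.

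After 7 days, edgeR called 0 of 34 members between KD-Nap1l2-7day and NC-7day, beside 0% of all genes. At an unadjusted p under 0.05 there were 5 members, beside 7.85% of all genes, and DESeq2 called 2 of 36 members, Col23a1 and Col27a1, both lower in KD-Nap1l2-7day, beside 0.577% of all genes. The median of the members was -0.22, beside -0.006 over all genes. The largest edgeR differences among members whose mean reached 50 normalized counts were negative for Col15a1 (-1.78 ± 0.51), Col23a1 (-1.31 ± 0.26) and Col9a1 (-1.03 ± 0.28), and positive for Col28a1 (0.61 ± 0.39), Col18a1 (0.60 ± 0.30) and Col7a1 (0.46 ± 0.31), with adjusted p-values from 0.443 to 0.792. That of Col15a1 was -0.59 without NC-7day replicate 2.

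The difference between the 2 induction responses was tested as an interaction. edgeR called 0 of 34 members, beside 0% of all genes. At an unadjusted p under 0.05 there were 11 members, beside 7.04% of all genes, and DESeq2 called 3 of 34, Col2a1, Col6a2 and Col27a1, beside 0.759% of all genes. In 27 of the 34 members (79.4%, beside 52.2% of all genes) the change was more negative in knockdown cells. The median difference was -0.65 beside -0.02 over all genes. Among members whose mean reached 50 normalized counts, the largest differences were those of Col2a1 (-2.56 ± 0.43), Col8a1 (-1.75 ± 0.66) and Col11a1 (-1.68 ± 0.56) on the negative side, and Col11a2 (0.59 ± 0.23), Col23a1 (0.56 ± 0.36) and Col20a1 (0.53 ± 0.42) on the positive side, with adjusted p-values from 0.343 to 0.829.

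The genes that serve the collagens were counted in the same fit. Of 20 tested genes for the folding and modification of collagen chains, 7 fell and 1 rose in control cells (median -0.63) and 9 fell and 1 rose in knockdown cells (median -0.65). Over all genes, 8.21% and 14.2% were called, with medians of -0.004 and -0.007, and these hold for the lists that follow too. Serpinh1, the collagen chaperone Hsp47, had 30279 and 26006 counts in NC and 11673 and 15078 in NC-7day, and fell by 1.01 ± 0.22 (adjusted p = 0.0313) and by 1.20 ± 0.22 (adjusted p = 0.0133). The prolyl 3-hydroxylase genes P3h1 and P3h3, the genes of their partners Crtap and Ppib, and the prolyl isomerase gene Fkbp14 also fell in both inductions. P4ha1, a prolyl 4-hydroxylase subunit, fell in control cells, and Fkbp10, P3h2 and P3h4 fell in knockdown cells. Tmem38b, a channel of the endoplasmic reticulum, was the one that rose, in both inductions. P4hb, the most abundant of the list, changed by -0.53 ± 0.35 and -0.66 ± 0.35 and did not pass. Of 12 genes that trim procollagen or cross-link fibrils, 0 were called in control cells and 1 in knockdown cells, Pcolce2, which fell by 3.03 ± 0.49 (adjusted p = 0.00867). At an unadjusted p under 0.05 there were 3 and 4 of these 12. Lox, the main cross-linking oxidase, changed by 0.65 ± 0.37 and -0.36 ± 0.37, and neither it nor Pcolce, the other abundant gene of the list, passed.

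Among 16 matrix proteins that bind fibrils, 6 fell and 1 rose in control cells and 7 fell in knockdown cells. Lum (lumican), a small leucine-rich proteoglycan, had 2360 and 1839 counts in NC, 93 and 37 in NC-7day, 876 and 531 in KD-Nap1l2, and 9 and 7 in KD-Nap1l2-7day. Its log2 change was -4.92 ± 0.44 (adjusted p = 0.00165) and -6.41 ± 0.56 (adjusted p = 0.000879). Dcn (decorin), which binds type I fibrils, changed by -2.37 ± 0.36 and -3.07 ± 0.37, and both changes passed. Fmod (fibromodulin), Sparc (osteonectin) and Thbs1 (thrombospondin 1) fell in both inductions, Kera (keratocan) fell in control cells, Aspn (asporin) and Tnc (tenascin C) fell in knockdown cells, and Vcan (versican) rose by 1.25 ± 0.18 in control cells. Bgn (biglycan) and Fn1 (fibronectin), the most abundant, did not pass, with changes of -0.32 ± 0.16 and 0.06 ± 0.16 for Bgn. Of 8 collagen receptors, Itga1 fell in both inductions (by 1.47 ± 0.22 and by 1.83 ± 0.22), Itga10 rose in control cells, and Itga11 and Adgrg1 fell in knockdown cells, while the abundant Itgb1 and Ddr2 did not pass. Of 10 genes for collagen-degrading enzymes and their inhibitors, the same 2 were called in each induction: Mmp9 fell, and Mmp8, a neutrophil-type collagenase with 0 to 3 counts before induction, had 39 to 142 counts after it. Timp2 and Timp3, the most abundant, were not called.

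Of 8 tested cartilage genes other than collagens, 3 rose in control cells (Prg4, Sox5 and Sox6), and in knockdown cells Prg4 rose while Sox9 and Cnmd fell. Cnmd, which encodes chondromodulin, had 130 and 44 counts in NC, 643 and 317 in KD-Nap1l2, 15 and 62 in NC-7day, and 2 and 8 in KD-Nap1l2-7day, so its KD-Nap1l2 libraries were the highest, as were those of Col2a1. Its difference between KD-Nap1l2 and NC did not pass (2.51 ± 0.67, adjusted p = 0.172). Of 7 tested osteoblast genes, 0 were called in control cells (3 at an unadjusted p under 0.05), and in knockdown cells Spp1 rose by 1.41 ± 0.38 (adjusted p = 0.0446) and Runx2 fell by 0.58 ± 0.14 (adjusted p = 0.0334). Of 9 mesenchymal markers, Thy1 fell in both inductions and Prrx1 and Twist1 fell in knockdown cells. The summed normalized counts of the 6 endothelial markers were between 76.8 and 118 in the 4 libraries before induction. They were between 30.0 and 52.4 in the 4 libraries after it, when most called collagens were lower. Of these 6 markers, 3 stayed under 10 counts in every library. All 3 tested endothelial markers were lower in control cells, and 0 were called. In knockdown cells 2 of the 3 were lower and 1 was higher, so the sum does not describe every marker. The sums of the 8 immune markers (320 to 417 before, 357 to 597 after) and of the 7 epithelial markers (82.7 to 166 before, 34.5 to 118 after) overlapped. The called endothelial and epithelial genes were Tek, which fell in knockdown cells, and Cdh1, which fell in both inductions. In bulk RNA, fewer cells of a type and less RNA per cell cannot be told apart, and the part of these marker shifts in the collagen results was not tested.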

How the data were processed

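RNA was sequenced by Beijing Genomics Institute, and the submitters' processing notes name BWA, Bowtie2, RSEM and GRCm38.p6, with no roles or versions. The authors deposited an estimated count and an FPKM value per gene and per transcript. The deposited counts are not normalized, and they are fractional for 41.1% of the genes and for 8 of the 44 members. The FPKM values are those counts scaled by gene length and library total. The authors' own table of comparisons (fold changes and p-values) was not used.

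Rounded counts were scaled by TMM and filtered with filterByExpr, which kept 13470 genes. All 8 libraries were fitted in one model with edgeR 4.0.16 (R 4.3.3), and quasi-likelihood tests were adjusted by Benjamini-Hochberg over all genes. A normalized count is a count divided by the effective library size and multiplied by the geometric mean of these sizes. The standard error is the size of the change over the square root of F. The script was tested on simulated data.

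Members named with values were the 12 of highest mean FPKM, all called ones, the 3 largest rises and falls per comparison where the mean reached 50 normalized counts, and the chains of types I, II, III and X. Genes of the other lists were named where called or among the 2 most abundant, except marker genes. Members and lists were chosen with earlier results of these data known. Promoters are from RefSeq and exons from GENCODE, and figures were drawn with matplotlib 3.10.9. Alternatives were DESeq2 1.42.0, other scalings and filters, a replicate block, limma 3.58.1 on FPKM, a 2-fold threshold, and leaving out each library.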

Additional observations from a re-analysis of the deposited data

Results flagged for a closer look

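In 2 members every library after induction lay above those before it in control cells and below those before it in knockdown cells. The share of all genes with this pattern was not counted, so the number of members cannot be weighed. For Col2a1 the counts rose above 96.4 and 97.1 to 178 and 121 in control cells and went from 541 and 605 to 194 and 104 in knockdown cells. The difference of its responses was -2.56 ± 0.43 on the log2 scale, which edgeR's interaction test did not call after adjustment (adjusted p = 0.343) and DESeq2 did (adjusted p = 5.16e-05). Col9a2, a chain on the surface of cartilage fibrils, had 5 and 6 counts in NC, 11 and 20 in NC-7day, 19 and 9 in KD-Nap1l2, and 2 and 5 in KD-Nap1l2-7day. Its difference of -3.47 ± 0.89 was called by neither edgeR (adjusted p = 0.462) nor DESeq2 (adjusted p = 0.552). At these counts single reads move the value.

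Col27a1 and Col6a2 fell more in knockdown than in control cells by DESeq2's interaction test (adjusted p = 0.00157 and 0.0239), while edgeR did not call them (-1.34 ± 0.23 with adjusted p = 0.352, and -0.85 ± 0.21 with adjusted p = 0.454).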

How the results depend on the processing

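With 2 libraries per group, the counts of called members depended on the method and on single libraries more than their directions did. Over 62 pairs of a member and a comparison and their alternatives, 993 of 1108 values kept their direction and their side of the threshold. Of the rest, 83 lost the call, 28 gained it and 4 changed sign. A pair not called in the main fit counted as kept when it stayed uncalled, and only called pairs could lose a call. The 993 therefore do not measure how well the calls held. In control cells the count of called members was 4 with only the libraries compared (749 of all 13103 genes), against 9 (1106 of 13470). With 1 library left out it was lowest without NC replicate 1, as was the count over all genes. In knockdown cells it lay between 5 and 18 with 1 library left out. For KD-Nap1l2 against NC it was 3 with no filter on low counts (160 of all 18567 genes). It was 0 with at least 10 counts in every library (4 of 12027), 0 with only the libraries compared (0 of 13172) and 8 with DESeq2 (453 of 13167). At an unadjusted p under 0.05 there were 12 members with at least 10 counts in every library and 14 with only the libraries compared. With 1 library left out the count was highest without KD-Nap1l2 replicate 1, as was the count over all genes. DESeq2 called 2 members after 7 days (0.577% of all genes) and 3 for the difference of the responses (0.759%). Of 13887 genes it called 1523 in control cells and 2339 in knockdown cells. Of 37 members it called 13 in control cells and 20 in knockdown cells, all those called by edgeR among them. The others in control cells were Col4a1 and Col12a1, higher, and Col5a2 and Col6a1, lower (adjusted p from 0.0134 to 0.0338). In knockdown cells they were Col4a1 and Col4a2, higher, and Col8a1, lower (adjusted p from 0.00885 to 0.0200). Col11a1 in knockdown cells reversed from 0.04 to -0.030 with the replicate block, and lay between -0.28 and 0.29 with 1 library left out; Col11a2 in control cells lay between -0.0062 and 0.27. As a share of summed FPKM, which weighs genes per length, the collagens took 0.910% in NC, 1.19% in KD-Nap1l2, 0.694% in NC-7day and 0.563% in KD-Nap1l2-7day. The cause of these shifts was not tested, except that a left-out library leaves fewer samples and the FPKM share counts long genes less.

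The replicate numbers gave no clear sign of a pairing of the libraries. The correlation of the differences between replicates 1 and 2 was over 0.1 in 1 of 6 pairs of groups, from -0.05 to 0.11. Such values cannot show whether libraries with the same number were handled together. With the replicate number as a block, 7 members were called in control cells, 17 in knockdown cells and 0 for KD-Nap1l2 against NC (10 at an unadjusted p under 0.05). Of all 13470 genes, 961, 1757 and 4 were called. No call was made in the other comparisons.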
